A study of Homo sapiens with 12 samples.

Results

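The 10 genes described here, TNFAIP3, TNIP1, CYLD, TRAF1, BIRC3, BIRC2, IER3, SOD2, ICAM1 and TNFAIP2, encode feedback regulators, survival factors and other products of NF-kappaB signalling. They were picked by symbol, with earlier results of these data known, as 10 of the 57500 genes in the count table. Each symbol stood on 1 Ensembl gene, and all 10 passed the filter on low counts and were tested among 27029 genes. Their RNA was measured by total RNA sequencing in 12 libraries of 2 human triple-negative breast cancer cell lines, HCC1806 and MDA-MB-468. Each line had 3 control libraries and 3 libraries labelled with the CRISPR-Cas9 guide sgPACT-2, meant to deplete PACT. PACT is the double-stranded RNA binding protein encoded by PRKRA. The control guide was sgC1 in HCC1806 and sgNTA in MDA-MB-468, so a difference between the lines and a difference between the control guides cannot be told apart. The labels do not say whether the libraries of a group came from separate cultures, and the p-values then measure only the spread between these libraries, which may be technical.

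NF-kappaB dimers are held in the cytoplasm by inhibitor proteins until receptors such as that for TNF, or sensors of foreign RNA, activate the IkappaB kinases. Among the genes they then switch on are brakes on the same signal, which remove or edit the ubiquitin chains that the signalling complexes are built on, and proteins that keep the cell alive while the signal lasts. A20, the product of TNFAIP3, is the best known of these brakes, and cIAP1 and cIAP2, the products of BIRC2 and BIRC3, are ubiquitin ligases that hold the death-inducing arm of TNF signalling in check.

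HCC1806 libraries held 18640633 to 24704877 counts each and MDA-MB-468 libraries 34581754 to 44790741, and mitochondrial genes took 11.6% to 15.0% and 6.31% to 8.90% of the counts. PRKRA, the targeted gene, stood at 77.8 ± 5.30 CPM (counts scaled by library size with TMM factors; SD, n = 3) in HCC1806 control libraries and 36.9 ± 0.774 in depleted ones. The log2 fold change was -1.07 (SE 0.10) with an adjusted p of 1.70e-05 by edgeR's quasi-likelihood test. In MDA-MB-468 it stood at 44.7 ± 3.12 and 38.8 ± 3.09 CPM with overlapping libraries (log2 fold change -0.20, SE 0.10, adjusted p = 0.958), so PRKRA RNA does not check the labels of that line, and these libraries are called here those labelled sgPACT-2. The change of PRKRA differed between the lines (interaction 0.87 on the log2 scale, SE 0.14, adjusted p = 0.0198). RNA counts do not measure PACT protein, so they do not give the depth of PACT depletion in either line. PRKRA also shares 132 exonic bases with PJVK and 85 with AC009948.1, both on the opposite strand. The summed CPM of 5 epithelial markers (EPCAM, CDH1, KRT8, KRT18, KRT19) was 1867 to 2114 in HCC1806 control and 1352 to 1602 in depleted libraries, and 3082 to 3349 and 2786 to 3167 in MDA-MB-468. The sum of 5 basal markers (KRT5, KRT14, KRT17, TP63, EGFR) went from 2110 to 2332 CPM down to 1637 to 1785 in HCC1806, with KRT17 higher and the other 4 lower in mean. In MDA-MB-468 it was 10032 to 10147 CPM in control libraries and 10584 to 11912 in those labelled sgPACT-2, most of it EGFR. Of the hormone receptors ESR1 and PGR, the sum stayed at or under 24.2 CPM in every library. The sum of 6 leukocyte markers was 2.41 to 3.18 CPM in HCC1806 control and 4.31 to 6.38 in depleted libraries, with CD3E at 0 in both; the mean of ITGAM went from 0.591 to 3.58 CPM while CD14 (1.66 to 1.05) and PTPRC (0.313 to 0.221) went the other way. The same sum was 90.6 to 106.7 and 79.7 to 81.9 CPM in the MDA-MB-468 groups, nearly all of it CD14. The part of these shifts in the results below was not tested. In bulk RNA, fewer cells that express a gene and less RNA per cell cannot be told apart.

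NF-kappaB dimers bind DNA at the kappaB site, and the sequence just before an annotated start shows where letters that match its consensus stand. RefSeq promoter windows (GRCh38.p14) were found for 9 of the 10 genes, all but IER3, and the 250 bases before each annotated start were searched on both strands for the kappaB consensus. A match stood in 4 of 18 windows of these genes (22.2%), against 3498 of 35116 windows of all genes (9.96%). Counted by gene, it stood in 4 of 9, against 3221 of 27305 of all genes. The matching windows belonged to TNFAIP3, BIRC3, TNIP1 and CYLD, and none of the matches overlapped another. The windows lie before RefSeq starts, and the GENCODE 29 gene models used for the coordinates below begin elsewhere for some of them. A match is a description of the letters and not a shown binding site, and the absence of one says only that the letters are not in that window. The 4 matching promoters are printed 5′ to 3′ on the gene's strand, with the kappaB matches in capitals, together with that of BIRC2, the neighbour and close relative of BIRC3, which had no match; each is cut short of most of the annotated exon. TNFAIP3 is shown at chr6:137867009-137867213 (plus strand), BIRC3 at chr11:102317234-102317449 (plus), TNIP1 at chr5:151081067-151081284 (minus), CYLD at chr16:50741836-50742049 (plus) and BIRC2 at chr11:102346964-102347210 (plus).
TNFAIP3: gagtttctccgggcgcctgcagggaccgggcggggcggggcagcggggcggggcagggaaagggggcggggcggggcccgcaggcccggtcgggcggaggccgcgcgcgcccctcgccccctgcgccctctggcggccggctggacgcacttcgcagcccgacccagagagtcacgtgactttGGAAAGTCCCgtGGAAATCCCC
BIRC3: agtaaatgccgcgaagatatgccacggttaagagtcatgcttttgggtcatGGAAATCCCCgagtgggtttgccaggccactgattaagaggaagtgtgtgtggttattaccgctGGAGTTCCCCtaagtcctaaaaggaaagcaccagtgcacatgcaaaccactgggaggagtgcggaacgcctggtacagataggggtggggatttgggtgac
TNIP1: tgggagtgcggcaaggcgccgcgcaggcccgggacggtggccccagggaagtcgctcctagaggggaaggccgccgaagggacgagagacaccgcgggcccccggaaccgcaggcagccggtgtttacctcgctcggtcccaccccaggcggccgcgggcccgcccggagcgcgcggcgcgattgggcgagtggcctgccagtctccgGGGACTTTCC
CYLD: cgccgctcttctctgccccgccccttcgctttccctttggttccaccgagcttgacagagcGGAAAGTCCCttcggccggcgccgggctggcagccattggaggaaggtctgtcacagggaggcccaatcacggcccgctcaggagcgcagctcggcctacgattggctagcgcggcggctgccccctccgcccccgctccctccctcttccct
BIRC2: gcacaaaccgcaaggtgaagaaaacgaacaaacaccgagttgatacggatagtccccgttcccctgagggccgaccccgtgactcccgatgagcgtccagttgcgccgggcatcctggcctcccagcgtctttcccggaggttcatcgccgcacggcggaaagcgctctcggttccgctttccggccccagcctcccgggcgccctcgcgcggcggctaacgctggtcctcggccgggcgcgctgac
TNFAIP3 held 2 matches close together, GGAAAGTCCC beginning 67 bases and GGAAATCCCC beginning 55 bases before the RefSeq start at 137867259. Both lie inside the first stretch of the GENCODE 29 gene, which begins at 137867188. BIRC3 held GGAAATCCCC and GGAGTTCCCC, beginning 199 and 135 bases before its start, the former with the same letters as the second match of TNFAIP3. In TNIP1 the match was GGGACTTTCC, 42 bases before the RefSeq start at 151081034, which lies within the GENCODE 29 gene, and the match overlaps an annotated exon there. The other RefSeq window of TNIP1 held no match. In CYLD it was GGAAAGTCCC, 189 bases before the RefSeq start at 50742086. The CYLD windows before the starts at 50742156 and 50742415 held no match. The same search found a match in 20 of 42 windows (47.6%) of a list of other NF-kappaB target genes and in 4 of 46 windows (8.70%) of a list of TNF receptor and A20 complex machinery; both lists are described further on.

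Per length of exon, the 10 genes spanned a wide range in every group. In HCC1806 control libraries TNFAIP2 (97.6 ± 31.9 RPKM, the CPM per kilobase of exon; SD, n = 3) and IER3 (96.5 ± 30.5) stood highest, and their libraries overlapped. TNIP1 followed at 18.8 RPKM, then BIRC2 (9.01), TNFAIP3 (8.51) and ICAM1 (7.70), which overlapped each other in that order, then SOD2 (3.03), then CYLD (1.23) and BIRC3 (0.963), which overlapped, and TRAF1 was lowest at 0.341. In the depleted libraries of that line TNFAIP2 (160.0) and IER3 (104.8) again led with overlap. TNFAIP3 came next at 31.7 RPKM, overlapping TNIP1 at 26.7, followed by ICAM1 (11.1) and BIRC2 (10.8), which overlapped. SOD2 (4.68) and BIRC3 (4.35) overlapped below them, with CYLD at 2.54 and TRAF1 at 1.40.

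The order was different in MDA-MB-468. There IER3 led at 195.6 ± 22.1 RPKM in control libraries, followed by TNFAIP2 (31.4), ICAM1 (21.9), TNIP1 (18.5) and BIRC2 (17.3), of which only the last pair overlapped. Below them came SOD2 (5.39), CYLD (4.35), BIRC3 (3.25), TNFAIP3 (1.27) and TRAF1 (0.705), with no overlap between neighbours. In the libraries labelled sgPACT-2 that order was kept, with SOD2, CYLD and BIRC3 now overlapping at 5.37, 5.15 and 4.99 RPKM, and TNFAIP3 at 3.69.

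**Figure D1:**
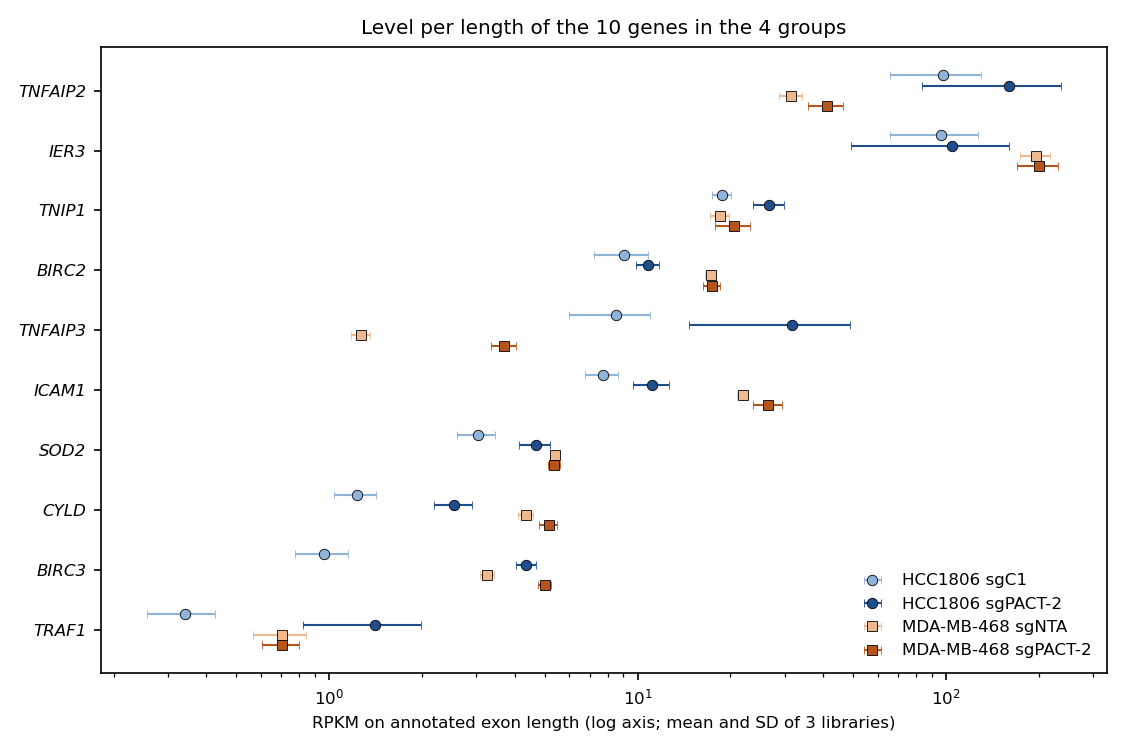
RPKM on the merged length of all annotated exons (horizontal log axis) of the 10 genes in the 4 groups, as the mean and SD of 3 libraries. TRAF1 is lowest in each group, TNFAIP3 lies further right in both HCC1806 groups (8.51 and 31.7 RPKM) than in the MDA-MB-468 groups (1.27 and 3.69), and BIRC3 lies further right under sgPACT-2 than under the control guide in both lines.

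With PACT depletion in HCC1806, 7 of the 10 genes rose and none fell, at an adjusted p under 0.05. Over all genes tested 1.16% rose in that comparison, 1.32% fell and 2.49% changed in either direction. The median log2 fold change of the 10 genes was 0.67, beside 0.01 for all genes. In MDA-MB-468, 1 of the 10, TNFAIP3, rose, against 0.170% of all genes, and the median was 0.20 beside -0.01 for all genes. The libraries of the groups did not overlap and the sgPACT-2 ones stood higher for the 7 genes in HCC1806 (background 8.51%) and for 5 genes, TNFAIP3, BIRC3, CYLD, ICAM1 and TNFAIP2, in MDA-MB-468 (background 6.20%). When each line was fitted alone, 4 genes rose in HCC1806 (TNFAIP3, BIRC3, TRAF1 and CYLD; 0.277% of all genes rose) and 4 in MDA-MB-468 (TNFAIP3, BIRC3, ICAM1 and TNFAIP2; 1.21% of all genes rose). The spread between replicates differed between the lines, with a biological coefficient of variation of 0.204 in HCC1806 and 0.0936 in MDA-MB-468, against 0.171 in the shared fit. The shared fit held no term for the replicate number. With that number as a block, 8 of the 10 genes and 702 of all 27029 genes rose in HCC1806, against 7 and 314 without it. Scaling by library size alone moved the median of all genes in HCC1806 by more than 0.1, to 0.13, and the split of all calls from 314 higher and 358 lower to 647 and 146; it left 7 of the 10 genes called.

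**Figure D2:**
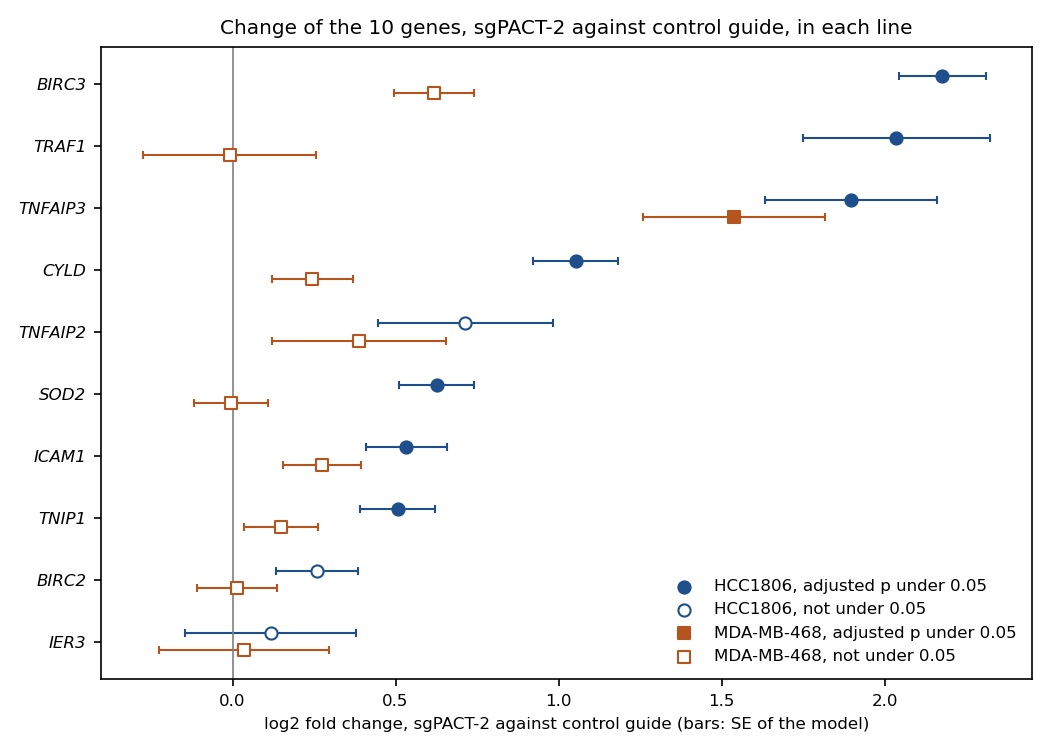
log2 fold change of each gene, sgPACT-2 against the control guide (horizontal axis), in HCC1806 (circles) and MDA-MB-468 (squares), with bars for the SE; filled symbols passed the test. BIRC3, TRAF1 and TNFAIP3 lie furthest right in HCC1806 (2.18, 2.04 and 1.90), while in MDA-MB-468 only TNFAIP3 is filled (1.54).

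Among the ubiquitin-editing brakes, TNFAIP3 rose in both lines and TNIP1 and CYLD rose in HCC1806. TNFAIP3 (ENSG00000118503, GRCh38 chromosome 6, 137867188 to 137883312, plus strand) stood at 57.4, 37.2 and 34.3 CPM in HCC1806 control replicates 1, 2 and 3 and at 259.6, 116.6 and 104.5 in depleted replicates 1, 2 and 3. Every depleted library lay above every control library, and replicate 1 was the highest of its group in both. The log2 fold change was 1.90 (SE 0.26, adjusted p = 0.000952), a 3.72-fold rise. It passed in all 12 fits that left out 1 library, and was 1.36 without depleted replicate 1. HCC1806 fitted alone gave an adjusted p of 0.0439. In MDA-MB-468 the control libraries held 6.72, 6.63 and 5.89 CPM and those labelled sgPACT-2 19.6, 16.7 and 19.6, again with no overlap and with a narrower spread. That rise was 2.91-fold (log2 fold change 1.54, SE 0.28, adjusted p = 0.0275); leaving out any 1 of the 6 MDA-MB-468 libraries ended the call, with an adjusted p up to 0.208, while the line fitted alone gave 3.95e-10. The gene shares 95 exonic bases with the antisense gene AL357060.1, whose reads cannot be told apart from its own where the strand setting is not known.

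TNIP1 (ENSG00000145901, chromosome 5, 151029945 to 151093577, minus strand) encodes ABIN-1, a ubiquitin-binding partner that recruits A20. It read 117.3, 107.8 and 102.0 CPM in HCC1806 control libraries and 175.9, 146.1 and 142.9 in depleted ones. The depleted libraries were all higher, by 0.51 on the log2 scale (SE 0.12, adjusted p = 0.0273). That call was lost, with an adjusted p up to 0.0778, without HCC1806 control replicate 2, without HCC1806 control replicate 3 or without MDA-MB-468 control replicate 2, and in HCC1806 fitted alone (0.147). In MDA-MB-468 it read 115.9, 102.7 and 102.5 CPM against 135.9, 106.6 and 113.4, and the groups overlapped (log2 fold change 0.15, 95% interval -0.09 to 0.39, adjusted p = 1).

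CYLD (ENSG00000083799, chromosome 16, 50742050 to 50801935, plus strand) encodes a deubiquitinase that removes linear and lysine-linked chains from the signalling complexes. Its levels were 18.1, 16.4 and 13.3 CPM in HCC1806 control libraries and 35.1, 27.7 and 36.1 in depleted ones, with no overlap. CYLD rose 2.07-fold there (log2 fold change 1.05, SE 0.13, adjusted p = 0.000311). In MDA-MB-468 the values were 54.2, 54.8 and 59.9 CPM against 67.2, 61.9 and 70.9. Those groups did not overlap either, but the difference of 0.24 on the log2 scale (95% interval -0.02 to 0.51) did not pass the test (adjusted p = 0.972). CYLD shares 56 and 27 exonic bases with the antisense genes AC007728.2 and AC007728.1.

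TRAF1 and the cIAPs act at the receptor: TRAF1 is an adaptor of TNF receptor family complexes that binds TRAF2 and, through it, the cIAP ligases. TRAF1 (ENSG00000056558, chromosome 9, 120902393 to 120929173, minus strand) was the lowest of the 10 genes, with 38 to 271 counts per library. Its CPM was 2.29, 2.69 and 1.61 in HCC1806 control libraries and 13.3, 7.76 and 6.14 in depleted ones, so the depleted libraries stood apart and replicate 1 was the highest of them. TRAF1 rose 4.10-fold (log2 fold change 2.04, SE 0.29, adjusted p = 0.00101). In MDA-MB-468 it read 4.35, 3.77 and 5.52 CPM against 3.88, 4.60 and 5.11 with full overlap, and the log2 fold change was -0.01 (95% interval -0.57 to 0.55), with a sign that turned under library size scaling (0.04).

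BIRC3 (ENSG00000023445, chromosome 11, 102317450 to 102339403, plus strand) showed the smallest p of the 10 genes in HCC1806. It stood at 6.71, 8.82 and 6.18 CPM in HCC1806 control libraries and at 35.3, 30.6 and 32.3 in depleted ones. That 4.52-fold rise (log2 fold change 2.18, SE 0.13, adjusted p = 8.21e-08) passed the test in all 12 fits that left out 1 library. In MDA-MB-468 the control libraries began higher, at 23.0, 25.1 and 25.2 CPM, and those labelled sgPACT-2 reached 38.6, 35.4 and 38.5. The groups did not overlap, and the difference of 0.62 on the log2 scale (SE 0.12) had an adjusted p of 0.0553; it passed in the line fitted alone (1.96e-05), with DESeq2 (0.00124) and with library size scaling (0.0398), and in 5 of the 12 leave-one-out fits, where it ranged from 0.00950 to 0.322.

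BIRC2 (ENSG00000110330, chromosome 11, 102347211 to 102378670, plus strand) begins 7807 bases after the end of BIRC3 on the same strand. Its levels were 49.4, 39.9 and 33.2 CPM in HCC1806 control libraries and 53.4, 45.4 and 47.9 in depleted ones, and the groups overlapped. The log2 fold change was 0.26 (95% interval -0.01 to 0.52, adjusted p = 0.3599). In MDA-MB-468 it read 79.3, 74.7 and 80.7 CPM against 82.3, 73.4 and 81.2 (log2 fold change 0.01, 95% interval -0.25 to 0.27). The ratio of BIRC3 to BIRC2 CPM, not corrected for length, was therefore 0.136, 0.221 and 0.186 in HCC1806 control libraries and 0.661, 0.674 and 0.674 in depleted ones. In MDA-MB-468 it was 0.291, 0.336 and 0.313 against 0.470, 0.483 and 0.475, with no overlap between the groups of either line.

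Of the survival genes, SOD2 rose in HCC1806 and IER3 did not pass the test in either line. SOD2 (ENSG00000112096, chromosome 6, 159669057 to 159745186, minus strand) encodes the manganese superoxide dismutase of mitochondria. It read 49.0, 57.5 and 43.4 CPM in HCC1806 control libraries and 66.8, 81.8 and 82.8 in depleted ones, with no overlap (log2 fold change 0.63, SE 0.11, adjusted p = 0.00796). The call was lost in HCC1806 fitted alone (0.131). The MDA-MB-468 values of 90.8, 86.7 and 89.1 CPM against 92.9, 84.9 and 88.0 overlapped, with a log2 fold change of -0.0044 (95% interval -0.24 to 0.23) whose sign turned under library size scaling (0.04). SOD2 is uncertain as a count, since it shares 845 exonic bases with a second gene of the same name and 298 with WTAP on the other strand.

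IER3 (ENSG00000137331, chromosome 6, 30743199 to 30744554, minus strand) is a short immediate early gene whose product affects cell survival. It read 177.9, 100.4 and 114.4 CPM in HCC1806 control libraries and 229.1, 97.7 and 99.4 in depleted ones. Replicate 1 was high in both groups, and the other depleted libraries lay below all control libraries. The log2 fold change was 0.12 (95% interval -0.44 to 0.67, adjusted p = 0.918), and it became -0.41 without depleted replicate 1. In MDA-MB-468 the values were 289.1, 275.2 and 231.5 CPM against 320.4, 251.8 and 243.5 (log2 fold change 0.04, 95% interval -0.52 to 0.59). IER3 shares 359 exonic bases with its antisense gene IER3-AS1.

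ICAM1, a cell surface ligand for leukocyte integrins, and TNFAIP2, a TNF-induced protein linked to cell protrusions, complete the 10 genes. ICAM1 (ENSG00000090339, chromosome 19, 10270835 to 10286615, plus strand) read 26.8, 32.5 and 26.3 CPM in HCC1806 control libraries and 34.9, 44.7 and 44.1 in depleted ones. The groups did not overlap (log2 fold change 0.53, SE 0.12, adjusted p = 0.0297), but only 4 of the 12 leave-one-out fits kept the call, the adjusted p reaching 0.108, and it was lost in HCC1806 fitted alone (0.194). In MDA-MB-468 it read 84.6, 78.1 and 81.0 CPM against 108.2, 87.3 and 99.1, again without overlap. That difference was 0.27 on the log2 scale (95% interval 0.02 to 0.52, adjusted p = 0.901) and passed in the line fitted alone (0.0355). ICAM1 shares 815 exonic bases with the antisense gene AC011511.5.

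TNFAIP2 (ENSG00000185215, chromosome 14, 103123442 to 103137439, plus strand) was the highest of the 10 genes in HCC1806 by CPM. Its control libraries read 305.5, 583.5 and 583.2 CPM and the depleted ones 446.2, 756.7 and 1212, with replicate 1 the lowest of its group in both and the groups overlapping. The log2 fold change of 0.71 (95% interval 0.15 to 1.28) did not pass the test (adjusted p = 0.199). It passed with the replicate number as a block (0.66, adjusted p = 0.000749). In the 12 leave-one-out fits it ranged from 0.29 without depleted replicate 3 (adjusted p = 0.661) to 1.00 without depleted replicate 1 (adjusted p = 0.00442), the only fit of the 12 that passed; without control replicate 1 it was 0.46. In MDA-MB-468 it read 171.2, 144.4 and 158.2 CPM against 216.1, 176.2 and 228.0, with no overlap (log2 fold change 0.39, 95% interval -0.18 to 0.95, adjusted p = 1), and passed in the line fitted alone (0.00233).

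**Figure D3:**
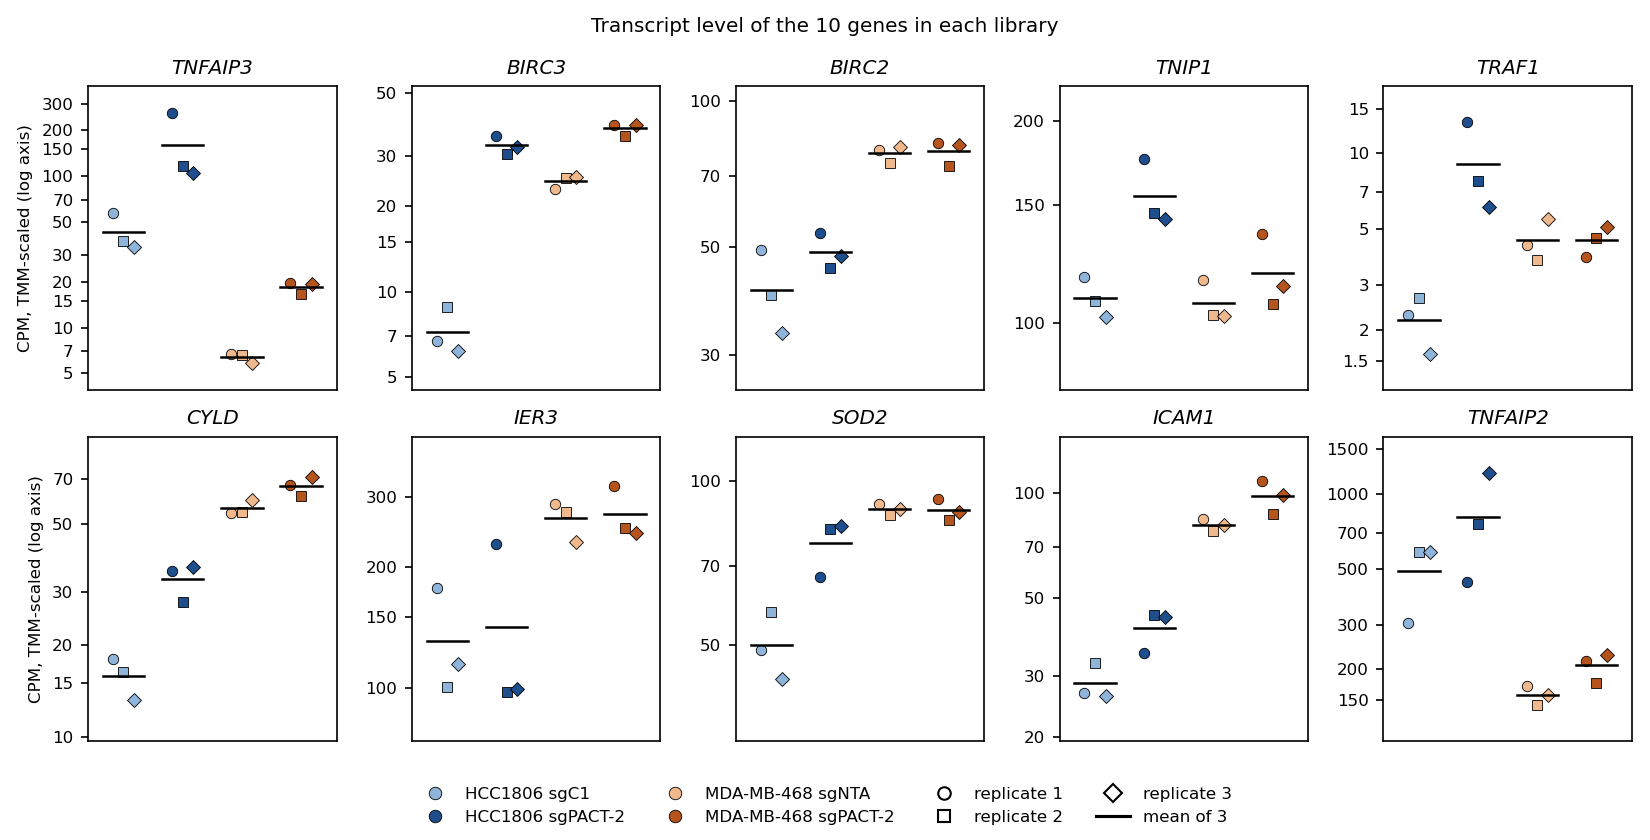
CPM (log axis) of each of the 10 genes in the 12 libraries, by group, with a marker for each replicate number and a bar at the mean of 3. Depleted HCC1806 replicate 1 is the highest of its group for TNFAIP3 (259.6 CPM) and IER3 (229.1) and the lowest for TNFAIP2 (446.2) and SOD2 (66.8).

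The highest and lowest replicates of a group were shared by most of the 10 genes in some groups and not in others. In depleted HCC1806 libraries, replicate 1 was the highest for TNFAIP3, TNIP1, TRAF1, BIRC3, BIRC2 and IER3 and the lowest for SOD2, ICAM1 and TNFAIP2. In HCC1806 control libraries, replicate 3 was the lowest for 8 of the 10 genes, all but IER3 and TNFAIP2. Of the MDA-MB-468 libraries labelled sgPACT-2, replicate 2 was the lowest for 8 of the 10, all but TRAF1 and IER3, and replicate 1 the highest for 7. Taken by replicate number, the log2 ratio of depleted to control CPM in HCC1806 was 2.18, 1.65 and 1.61 for TNFAIP3, 2.40, 1.79 and 2.38 for BIRC3, and 2.53, 1.53 and 1.93 for TRAF1. For IER3 the ratios were 0.37, -0.04 and -0.20, with both signs. For TNFAIP2 they were 0.55, 0.38 and 1.06, positive for every replicate number.

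The change of BIRC3 differed between the lines by -1.56 on the log2 scale (MDA-MB-468 minus HCC1806, SE 0.18, adjusted p = 0.00169 for the interaction term). In the shared fit it alone of the 10 genes passed, against 0.122% of all genes, and it passed in all 12 fits that left out 1 library. TRAF1 differed by -2.05 (SE 0.39) with an adjusted p of 0.0503, CYLD by -0.81 (SE 0.18, 0.121) and SOD2 by -0.63 (SE 0.16, 0.189). With the replicate number as a block these 3 passed, at 0.00279, 0.0198 and 0.0309, as they did with DESeq2, so that 4 of 10 genes passed against 1.00% and 0.659% of all genes. For TNFAIP3 the difference was -0.36 (95% interval -1.16 to 0.44, adjusted p = 0.868), and the interval allows a rise in MDA-MB-468 from less than the HCC1806 rise to more than it. The differences of TNIP1 (-0.36), TNFAIP2 (-0.33), ICAM1 (-0.26), BIRC2 (-0.25) and IER3 (-0.08) did not pass, with adjusted p from 0.566 to 1.

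Between the control libraries, MDA-MB-468 against HCC1806, 9 of the 10 genes differed, beside 74.2% of all genes, so a difference in itself is common. Of the 10, 7 were higher and 2 lower, against 34.2% and 40.1% of all genes, whose median was -0.26 and moved to -0.51 with library size scaling. TNFAIP3 was lower in MDA-MB-468 by -2.75 on the log2 scale (SE 0.29, adjusted p = 1.31e-07) and TNFAIP2 by -1.64 (SE 0.27, adjusted p = 3.93e-05). CYLD (1.82), BIRC3 (1.76), ICAM1 (1.51), TRAF1 (1.05), IER3 (1.02), BIRC2 (0.94) and SOD2 (0.83) were higher, with adjusted p from 1.04e-09 to 0.00307. TNIP1 differed by -0.03 (SE 0.11, adjusted p = 0.839) with overlapping libraries, and by -0.28 with library size scaling, where it passed (adjusted p = 0.0147). The control groups are the reference of the depletion comparisons too, so the values of these comparisons are not independent of each other.

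The machinery that these regulators act on was counted beside them. Of 29 genes of the TNF receptor and A20 complexes, all tested, 1 rose and 1 fell in HCC1806 (median log2 fold change 0.07), and 1 rose in MDA-MB-468, with a median of 0.06. Over all genes 1.16% rose and 1.32% fell in HCC1806, and 0.170% rose in MDA-MB-468. In HCC1806 TRAF3, an adaptor that holds back the non-canonical NF-kappaB pathway, rose from 48.5 ± 5.33 to 76.1 ± 9.08 CPM (SD, n = 3; log2 fold change 0.65, SE 0.13, adjusted p = 0.0174). TNFRSF1A, the main TNF receptor, fell from 196.8 ± 2.97 to 156.2 ± 5.91 CPM (-0.33, SE 0.08, adjusted p = 0.0441). RIPK1, the kinase that TNF receptor complexes ubiquitinate, went from 32.7 ± 1.97 to 40.3 ± 0.712 CPM (0.30, adjusted p = 0.134). In MDA-MB-468 MAP3K14, the NF-kappaB-inducing kinase that starts the non-canonical pathway, rose from 17.8 ± 1.84 to 32.3 ± 2.55 CPM (0.86, SE 0.16, adjusted p = 0.0361). Its value in HCC1806 was -0.13, and the difference between the lines, 0.99, did not pass (adjusted p = 0.129). CASP8, the initiator caspase of death receptors, went from 27.3 ± 1.30 to 33.4 ± 1.06 CPM in MDA-MB-468 (0.29, adjusted p = 0.611), and TRAF3 from 24.3 ± 3.84 to 28.7 ± 3.37 (0.24, adjusted p = 1).

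A list of 32 other genes known as NF-kappaB targets, chosen with earlier results of these data known, was counted in the same way. BCL2A1, TNFAIP6 and VCAM1 did not pass the filter on low counts. Of the 29 tested genes 10 rose and none fell in HCC1806, with a median of 0.77, and 3 rose in MDA-MB-468, with a median of 0.16, beside the same shares of all genes (1.16% and 0.170% higher). Both medians were the same to 2 decimals with genes at or under a floor of 3 counts per library set to their bound or left out. RELB, a subunit of non-canonical NF-kappaB, stood at 7.70 ± 0.396 CPM in HCC1806 control libraries and rose to 38.3 ± 2.56 (2.31 on the log2 scale, adjusted p = 3.19e-08) and from 23.6 ± 3.13 to 49.4 ± 5.73 in MDA-MB-468 (1.07, adjusted p = 0.000395). RELB was also the one gene of that list whose change differed between the lines (-1.24, adjusted p = 0.00674). NFKB2, the precursor of its partner subunit, rose from 59.3 ± 4.21 to 146.3 ± 16.5 CPM (1.30, adjusted p = 5.16e-06) and from 37.0 ± 2.94 to 57.4 ± 4.78 (0.63, adjusted p = 0.0216). TNFRSF9, a receptor that uses TRAF1 as an adaptor, rose in HCC1806 from 1.07 ± 0.433 to 11.7 ± 1.92 CPM (3.45, adjusted p = 2.44e-05), and the cytokine gene IL6 rose in MDA-MB-468 from 0.145 ± 0.0966 to 4.31 ± 1.47 CPM (4.84, adjusted p = 0.000412).

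**Figure D4:**
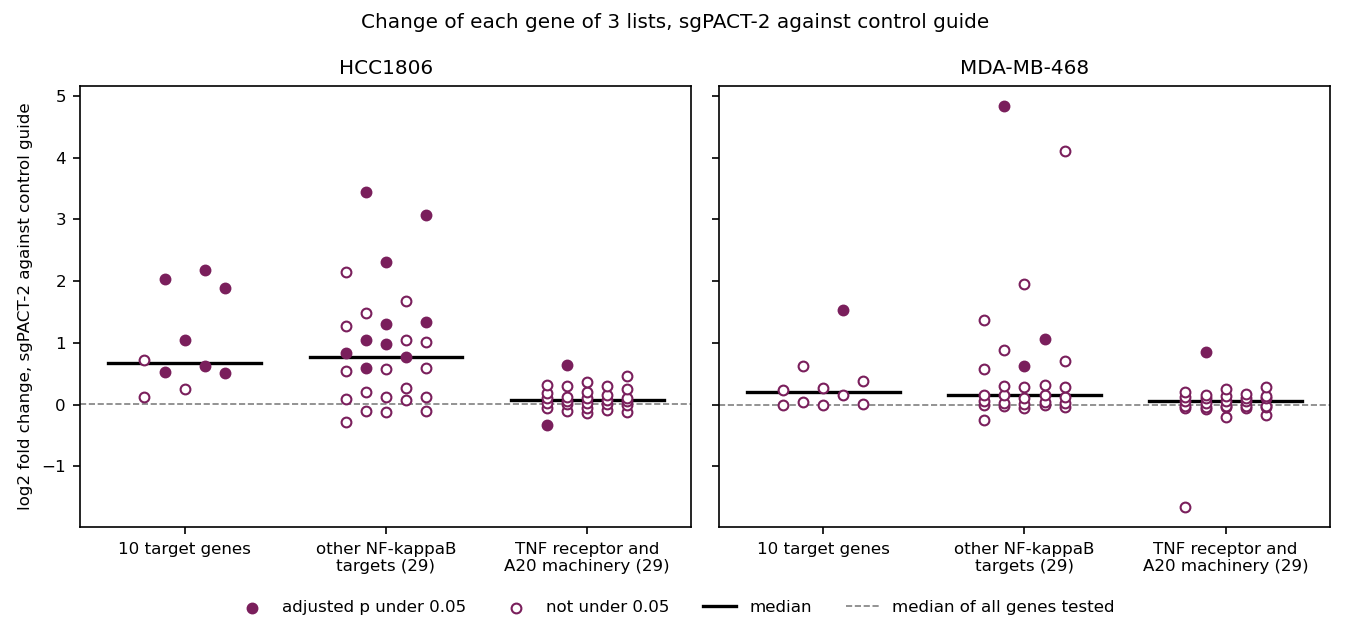
log2 fold change (vertical axis) of each tested gene of 3 lists, in HCC1806 (left) and MDA-MB-468 (right), with filled points where the adjusted p was under 0.05, a bar at each list's median and a dashed line at the median of all genes tested. In HCC1806 the medians of the 10 genes (0.67) and of the other NF-kappaB targets (0.77) lie above that of the receptor and A20 machinery (0.07).

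The genes whose pattern was most like that of TNFAIP3 were sought by Pearson's r over the 12 libraries of log2 CPM, with each line's mean taken off, among 15908 genes that averaged 50 counts or more. They were ALOXE3 (0.972), GADD45A (0.968), SLC25A25 (0.961), MB21D2 (0.960) and RGS16 (0.955). The points share the libraries and the contrast of sgPACT-2 with control, so these values only describe likeness. Among the 10 genes themselves, r with TNFAIP3 was 0.868 for TNIP1, 0.846 for BIRC3, 0.834 for CYLD, 0.750 for TRAF1, 0.665 for ICAM1, 0.647 for BIRC2, 0.543 for SOD2, 0.405 for IER3 and 0.264 for TNFAIP2.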

How the data were processed

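The authors deposited a table of unnormalized read counts, with Ensembl genes in rows and the 12 libraries in columns, and no other file was used. Per the submitters' processing notes, the tools were Trimmomatic 0.36, STAR 2.5.2b and featureCounts of Subread 1.5.2 on GRCh38; the strand setting and annotation release are not given in the sources used here. Per the labels' protocols, ribosomal RNA was removed from DNase-treated total RNA. Coordinates and exon lengths come from GENCODE 29 by Ensembl ID, which matched 56898 of 57500 genes.

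The main fit was edgeR 4.0.16 in R 4.3.3: filterByExpr on the 4 groups, which kept 27029 of 44375 genes with at least 1 count, TMM scaling, all 12 libraries with 1 coefficient per group, the quasi-likelihood test, and Benjamini-Hochberg adjustment over all genes at 0.05. The SE is the size of the log2 fold change over the square root of F, and 95% intervals use the t distribution. Every adjusted p comes from this fit unless another is named. The script was tested on data simulated with 1 spread for all genes and both lines and with no replicate effect. That test does not show how the shared fit does where the spread differs between the lines, as it does here. Alternatives were DESeq2 1.42.0, RLE size factors, library size only, no filter, a mean of at least 50 counts, each line alone, the replicate block and 12 fits leaving out 1 library.

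In HCC1806, deviations from the group means of same-numbered libraries correlated at 0.479, 0.294 and 0.152 over 15918 genes. Control replicate 2 correlated more with depleted replicate 3 (0.351) than with depleted replicate 2 (0.294). The numbers, which come from the labels, were therefore not borne out as pairs throughout. The 3 against 3 design allows no exact permutation p under 0.1 for a single gene. The 10 genes and the lists were chosen with earlier results of these data known. Named genes were the 10, PRKRA, the 3 genes of each list with the smallest p in each line, and the 5 genes most like TNFAIP3; other genes that a count or overlap singled out were named after their values were seen.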

Additional observations from a re-analysis of the deposited data

Results flagged for a closer look

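The change of BIRC3 under sgPACT-2 differed between the 2 cell lines by a test of the difference itself: the interaction term was -1.56 on the log2 scale (MDA-MB-468 minus HCC1806, adjusted p = 0.00169 by edgeR's quasi-likelihood test). HCC1806 showed a log2 fold change of 2.18 and MDA-MB-468 one of 0.62, with all 3 libraries labelled sgPACT-2 above all 3 control libraries in each. The targeted RNA differed too: PRKRA changed by -1.07 in HCC1806 and by -0.20 in MDA-MB-468 (interaction 0.87, adjusted p = 0.0198). PACT protein was not measured here, so these RNA values do not show whether PACT was depleted less in MDA-MB-468. The part of the PRKRA difference in the BIRC3 difference was not tested. The control guide differed between the lines, so the line and the guide cannot be told apart.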

How the results depend on the processing

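All counts here are of genes with an adjusted p under 0.05; where a count moved, the cause was not tested unless fewer genes or libraries are named. In HCC1806 (main 7 of the 10 genes, 672 of all genes) the line fitted alone called 4 of the 10, and the count over all genes was 1245 with DESeq2, 1351 with no filter, 74 with the line alone and 1947 with the replicate block. In MDA-MB-468 (main 1 and 46) 2 of the 10 were called with DESeq2, library size only, no filter, a mean of at least 50 counts or the replicate block, and 4 with the line alone; over all genes the count was 113 with DESeq2, 143 with no filter, 323 with the line alone and 102 with the replicate block. For the interaction (main 1 and 33) 4 of the 10 passed with DESeq2, 2 with library size only, 3 with no filter and 4 with the replicate block, and over all genes 178, 275 with no filter and 271 with the replicate block. Between the control lines the count fell from 20068 to 13022 with a mean of at least 50 counts, where 15918 genes were tested.

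Leaving out 1 library gave 5 to 8 of the 10 genes in HCC1806 and 301 (without control replicate 1) to 1792 (without depleted replicate 1) of all genes. It gave 0 to 2 and 19 to 98 in MDA-MB-468, and 1 to 3 and 9 to 168 for the interaction; 98 and 168 were without depleted HCC1806 replicate 1. Some uncalled values changed sign. In MDA-MB-468, TRAF1 was 0.043 with library size only, 0.0015 with a mean of at least 50 counts, 0.0075 with the line alone, 3.9e-05 with the replicate block and -0.13 to 0.16 with 1 library left out; SOD2 was 0.044, 0.0021, 0.011 under the first 3 of these and, with 1 library left out, -0.043 to 0.027. With 1 library left out, IER3 ranged from -0.41 to 0.40 in HCC1806 and from -0.10 to 0.11 in MDA-MB-468, and BIRC2 in MDA-MB-468 from -0.021 to 0.063. The interaction ranged from -0.60 to 0.19 for TNFAIP3, -0.35 to 0.46 for IER3 and -0.60 to 0.11 for TNFAIP2, and TNIP1 between the control lines from -0.083 to 0.045.

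Same-numbered MDA-MB-468 libraries correlated at 0.116, 0.0750 and 0.106, low values that still stood above those of differently numbered ones (-0.109 to 0.00375). The replicate block moved BIRC3 there to an adjusted p of 0.0184. By Spearman's rho, 3 of the 5 genes most like TNFAIP3 were the same, and SLC25A25 ranked 111. TRAF1, at 38 to 271 counts, is the gene that depth limits most.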
